A study of Mus musculus with 8 samples.

Results

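Histone genes were examined in mesenchymal stromal cells of the pancreas (pMSCs) and of the inguinal fat pad, a subcutaneous white adipose tissue (iwatMSCs). The members were every protein-coding gene whose GENCODE M21 symbol begins with Hist1h, Hist2h, Hist3h or Hist4h (67 clustered genes), plus 10 named variant genes: H2afx, H2afz, H2afv, H2afj, H2afy, H3f3a, H3f3b, H3f3c, H1f0 and H1fx. These 77 genes stood among 54116 genes in the table. H3f3c is annotated as a processed pseudogene and was kept because the list names it. Both groups came from untreated adult male C57BL/6J mice with no transgene or other allele, and the cells were pooled from several mice. Sorting kept SCA1+ cells and removed cells with CD31 (endothelium) or CD45 (leukocytes) on their surface, and the sorted cells were expanded in culture for 4 days. The comparison asks how the stromal cells of the 2 organs differ, with 4 pMSC and 4 iwatMSC libraries. Expression is given as FPKM, a fragment count corrected for transcript length and library size, which was summed over a gene's transcripts. Errors after ± are SDs over 4 libraries, or SEs for log2 fold changes.

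Histones are the proteins around which DNA is wound. H2A, H2B, H3 and H4 form the core of the nucleosome, and H1 binds the linker DNA between nucleosomes. The clustered genes are known to be expressed mainly in S phase, when new chromatin is made, and their mRNAs usually end shortly after a conserved stem-loop in place of a poly(A) tail. The stem-loop is bound by SLBP and processed with the U7 small nuclear RNP. Variant histones are mostly encoded by single genes with polyadenylated mRNAs and are made through the cell cycle. Some clustered genes are also known to give longer, polyadenylated transcripts. RNA was enriched for mRNA before sequencing, by a method that is not given in the sources used here. How much of the stem-loop-ended mRNA was kept was not tested, so FPKM of clustered and variant genes need not reflect their cellular mRNA to the same degree.

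The stem-loop letters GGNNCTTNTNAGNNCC, with both 6-base arms complementary, were found on the sense strand of annotated transcripts of 46 of the 67 clustered genes and 1 variant gene, H2afx. They occurred in 55 of 21901 protein-coding genes (0.251%), 8 of which were not members. The core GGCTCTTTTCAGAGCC was the most frequent, in 26 clustered genes. The stem-loops of members with a called difference are shown from GENCODE M21 transcripts because the same element stood at very different distances from the annotated end. Capitals mark the 16-base stem-loop and lower case 6 bases on each side.
Hist1h2ag: aacaaaGGCTCTTTTCAGAGCCacctaa
Hist2h2aa2: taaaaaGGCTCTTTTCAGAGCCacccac
Hist1h2bg: cccaaaGGCTCTTTTCAGAGCCacccat
Hist1h4i: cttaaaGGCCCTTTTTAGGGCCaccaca
Hist1h1c: ccaaaaGGCTCTTTTCAGAGCCaccact
H2afx: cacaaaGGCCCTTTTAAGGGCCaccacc
Hist1h2ag, Hist2h2aa2, Hist1h2bg and Hist1h1c have the same 16 bases. The annotated transcript ran on for 23 bases after the stem-loop in Hist1h2ag, 35 in Hist2h2aa2, 155 in Hist1h2bg, 330 in Hist1h4i, 840 in Hist1h1c and 822 in H2afx.

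A gene was tested by limma on log2(FPKM + 1) if it averaged at least 1 FPKM across the 8 libraries, with adjusted p-values over all 13345 genes tested and a call under 0.05. Of these, 9.02% were called higher and 10.4% lower in pMSCs, with a median log2 fold change of -0.03 over all tested genes. Only 13 of the 67 clustered genes were tested. Another 41 averaged between 0.1 and 1 FPKM, and 13 averaged under 0.1 FPKM, among them Hist1h2aa, which was listed at 0 in every library. Among the 13 tested clustered genes, 1 was called higher and 6 lower in pMSCs, and 6 were not called (median log2 fold change -0.45). Since 2 of the 13 passed the expression filter while averaging under 1 FPKM in pMSCs, these counts do not describe all clustered genes. All 10 variant genes were tested, of which 0 were called higher and 3 lower in pMSCs (median 0.03). With the same limma fit, 1 variant gene was higher at an unadjusted p under 0.05, and the unequal-variance test also called 0 higher.

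**Figure D1:**
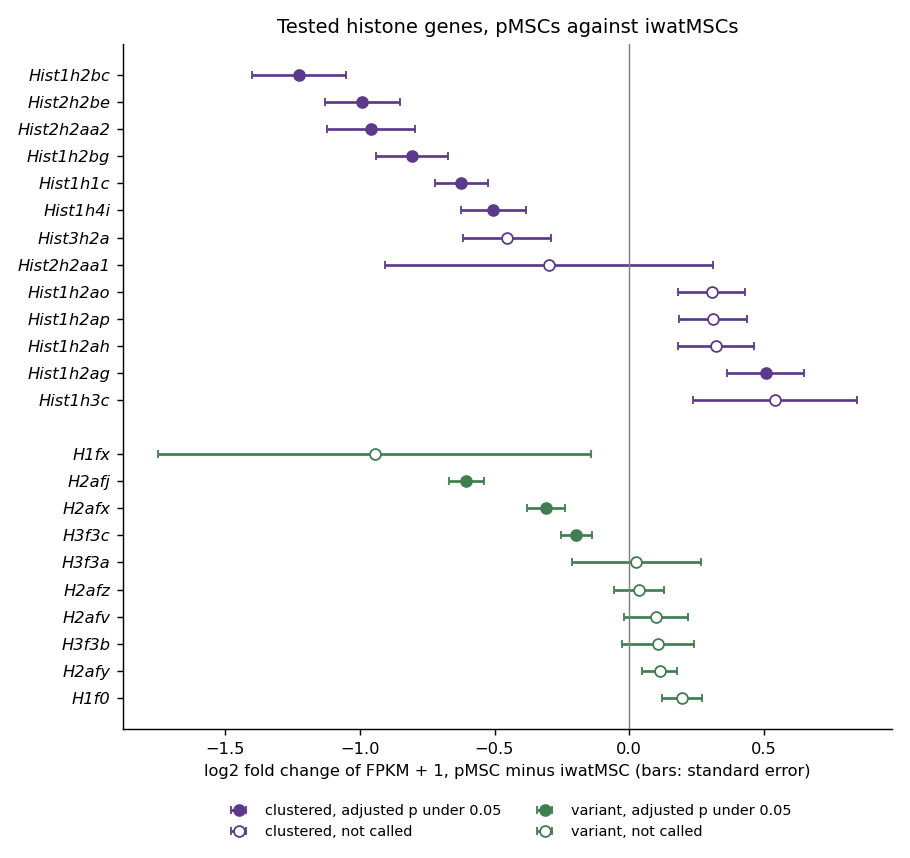
Log2 fold change of FPKM + 1, pMSC minus iwatMSC, on the x axis for the 13 tested clustered and 10 variant genes, with standard errors. Filled points have an adjusted p under 0.05. The largest negative value of a called gene is that of Hist1h2bc at -1.23, and Hist1h2ag at 0.51 is the called gene on the positive side.

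H2B proteins form the nucleosome core with H2A, and 3 of the 18 clustered H2B genes were tested, Hist1h2bc, Hist2h2be and Hist1h2bg, each called lower in pMSCs. Hist1h2bg, with a mean of 0.985 FPKM in pMSCs, passed the limit of 1 FPKM only through iwatMSCs, so this count does not stand for the H2B genes. Among the 15 untested H2B genes, 4 had a higher mean in pMSCs, such as Hist1h2bk with 0.594 FPKM in pMSCs, against 0.223 FPKM in iwatMSCs, and 11 a lower one. Hist1h2bc (chr13:23684199-23692908, GRCm38, + strand) was at 5.23, 5.51, 9.26 and 6.99 FPKM in pMSCs, against 15.4, 13.7, 18.3 and 20.4 FPKM in iwatMSCs. The groups did not overlap, and the third pMSC library was the highest of its group. Its log2 fold change was -1.23 ± 0.18 (SE, limma adjusted p = 0.0013). The transcript measured is an annotated 2-exon form of 1156 bases in which the stem-loop letters were not found.

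Hist2h2be (chr3:96221119-96223738, + strand) was at 0.814, 1.14, 1.29 and 0.810 FPKM in pMSCs, against 2.41, 3.97, 2.89 and 2.82 FPKM in iwatMSCs. Every pMSC library was below every iwatMSC library (log2 fold change -0.99 ± 0.14, adjusted p = 0.0012). Its annotated transcript is 2620 bases long, without the stem-loop letters. Hist1h2bg (chr13:23571396-23572013, + strand) was at 0.929, 0.750, 1.31 and 0.956 FPKM in pMSCs, against 2.35, 1.84, 2.87 and 2.87 FPKM in iwatMSCs. The groups again did not overlap (log2 fold change -0.81 ± 0.13, adjusted p = 0.0031). These 3 genes were called lower under each alternative in which they were tested.

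Summed over all 18 clustered H2B genes, FPKM were 10.7, 10.9, 15.9 and 11.2 in pMSCs, against 24.0, 22.3, 28.6 and 28.4 in iwatMSCs (means 12.2 ± 2.48 in pMSCs and 25.8 ± 3.14 in iwatMSCs). This sum was higher in every iwatMSC library than in any pMSC library, and most of it was Hist1h2bc. It is given as a description with no test, as are the other sums.

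**Figure D2:**
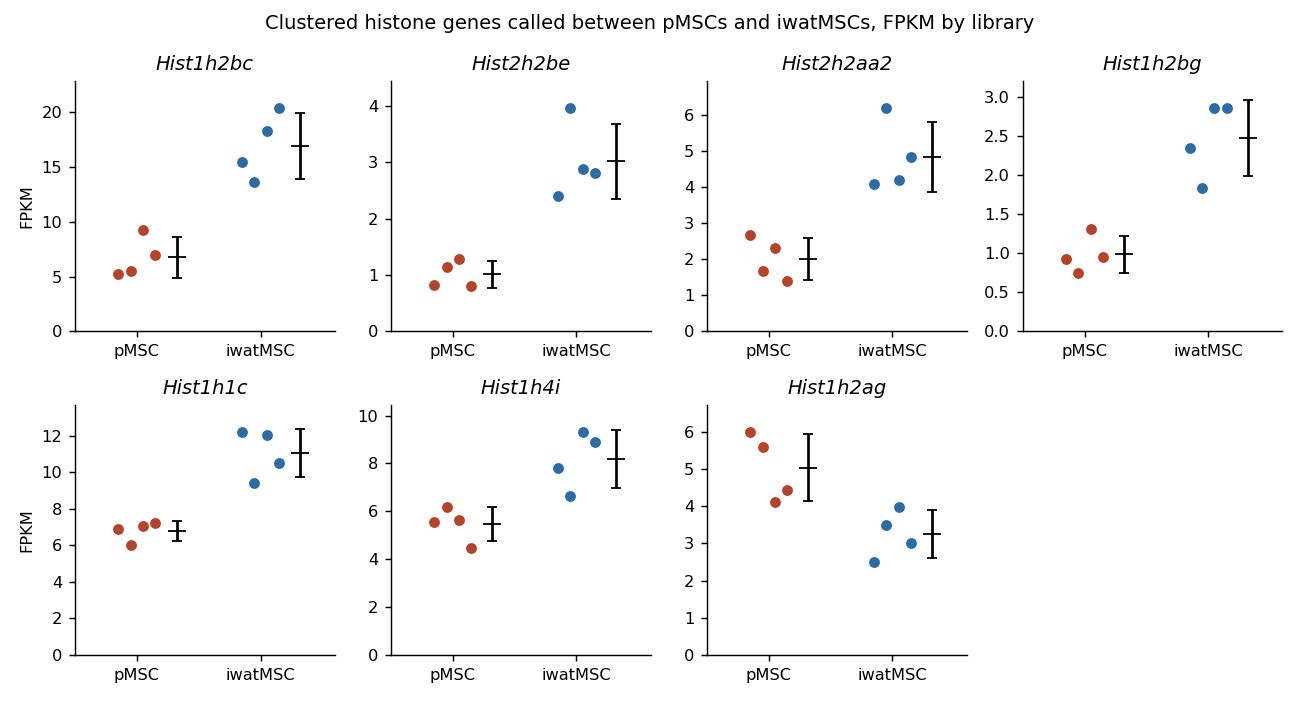
FPKM by library of the 7 clustered histone genes called between pMSCs (left in each panel, red) and iwatMSCs (right, blue), with mean and SD as bars. In every panel the groups do not overlap. Hist1h2bc reaches 20.4 FPKM in iwatMSCs and at most 9.26 FPKM in pMSCs.

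Hist1h1c encodes a linker histone that is abundant in somatic cells. Hist1h1c (chr13:23738808-23740367, + strand) was at 6.90, 6.01, 7.08 and 7.24 FPKM in pMSCs, against 12.2, 9.42, 12.1 and 10.5 FPKM in iwatMSCs. All pMSC libraries were below all iwatMSC libraries (log2 fold change -0.62 ± 0.10, adjusted p = 0.0023), and the call held under each alternative run. It was the only one of the 6 clustered H1 genes that was tested. The clustered H1 sum of 7.13 ± 0.55 FPKM in pMSCs, against 11.6 ± 1.39 FPKM in iwatMSCs, was mostly this gene.

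Of the 13 clustered H4 genes, only Hist1h4i (chr13:22040636-22041362, - strand) was tested. It was at 5.53, 6.18, 5.65 and 4.48 FPKM in pMSCs, against 7.83, 6.66, 9.33 and 8.91 FPKM in iwatMSCs. The groups did not overlap, although the gap between the highest pMSC and the lowest iwatMSC library was small (log2 fold change -0.50 ± 0.12, adjusted p = 0.018). The adjusted p was 0.056 without the third and 0.055 without the fourth iwatMSC library, and it was 0.061 with the unequal-variance test.

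Clustered H2A genes, which encode the partner of H2B, were called in both directions. Hist1h2ag (chr13:22042460-22042944, - strand) was at 6.01, 5.58, 4.12 and 4.44 FPKM in pMSCs, against 2.49, 3.49, 3.99 and 3.02 FPKM in iwatMSCs. It was the one clustered gene called higher in pMSCs, by a narrow gap between the groups (log2 fold change 0.51 ± 0.14, adjusted p = 0.036). The call was lost in 9 of 19 alternatives, among them leaving out any one of pMSC libraries 1, 2 and 4 or of iwatMSC libraries 1, 2 and 4 (adjusted p from 0.050 to 0.094).

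Hist1h2ao and Hist1h2ap had the highest FPKM of the clustered genes in pMSCs, and over all 8 libraries, while Hist1h2bc was above them in iwatMSCs. Hist1h2ao was at 22.2, 20.5, 16.5 and 16.0 FPKM in pMSCs, against 12.7, 17.1, 15.6 and 14.4 FPKM in iwatMSCs, and the groups overlapped. It was not called (log2 fold change 0.31 ± 0.12, adjusted p = 0.12). Hist1h2ap had nearly the same values (18.9 ± 3.03 FPKM in pMSCs, against 14.9 ± 1.83 FPKM in iwatMSCs, adjusted p = 0.12). Hist1h2ah averaged 2.36 ± 0.59 FPKM in pMSCs, against 1.66 ± 0.23 FPKM in iwatMSCs and was not called either (adjusted p = 0.15).

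These H2A genes are copies of similar sequence. Of the 50-base windows of a gene's most abundant transcript, 93.5% of those of Hist1h2ao were also in Hist1h2ap, 78.9% of those of Hist1h2ag were shared with some other annotated gene, and so were 92.1% of those of Hist1h2ah. Reads within such windows can be divided among the copies by the quantification, so these genes are not independent measurements. By contrast, 0% of the windows of Hist2h2be, 8.54% of those of Hist1h1c, 28.9% of those of Hist1h4i, 30.6% of those of Hist1h2bc and 49.7% of those of Hist1h2bg were shared. When Hist1h2ao and Hist1h2ap were summed as 1 gene, 44.4, 41.1, 33.0 and 32.1 FPKM in pMSCs stood against 25.4, 34.0, 31.4 and 28.7 FPKM in iwatMSCs (adjusted p = 0.11).

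Reads may be divided in the same way between the duplicated pair Hist2h2aa1 and Hist2h2aa2, whose transcripts share 100% of the windows of the shorter one. Hist2h2aa2 (chr3:96239749-96240276, - strand) was at 2.66, 1.66, 2.31 and 1.40 FPKM in pMSCs, against 4.07, 6.19, 4.19 and 4.83 FPKM in iwatMSCs, and it was called lower (log2 fold change -0.96 ± 0.16, adjusted p = 0.0035). The antisense gene Gm20632 covers 528 bases of Hist2h2aa2 and was at 0.56 to 0.77 FPKM in pMSCs, against 1.09 to 1.25 FPKM in iwatMSCs. As no library strand was set in the quantification, reads from these 2 genes cannot be told apart. Hist2h2aa1 was listed at 2.50, 0, 0.16 and 1.02 FPKM in pMSCs, against 0, 4.12, 0 and 2.66 FPKM in iwatMSCs, and was not called (adjusted p = 0.78). Summed as 1 gene, the pair was at 5.16, 1.66, 2.48 and 2.42 FPKM in pMSCs, against 4.07, 10.3, 4.19 and 7.50 FPKM in iwatMSCs. The groups then overlapped through the first pMSC library, and the pair was not called (log2 fold change -0.92 ± 0.32, adjusted p = 0.073). Hist3h2a averaged 2.44 ± 0.58 FPKM in pMSCs, against 3.73 ± 0.91 FPKM in iwatMSCs and was not called (adjusted p = 0.086).

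The summed clustered H2A level was 65.6, 58.0, 48.6 and 47.8 FPKM in pMSCs, against 39.6, 55.0, 49.8 and 49.8 FPKM in iwatMSCs, with overlapping groups. Markers of acinar cells, the enzyme-secreting cells of the pancreas, were highest in the same pMSC libraries 1 and 2. All 7 acinar genes of the list were called higher in pMSCs by limma, and the unequal-variance test called 1 of them. Their sum was 234, 137, 45.5 and 61.2 FPKM in pMSC libraries 1 to 4, against 1.74 to 3.69 FPKM in iwatMSCs, where Cpa1, Prss2, Ctrb1 and Cel were at 0. Without pMSC libraries 1 and 2, Hist1h2ag was not called (log2 fold change 0.33, adjusted p = 0.23), nor was Hist1h4i (adjusted p = 0.051), while Hist1h1c, Hist1h2bc, Hist1h2bg, Hist2h2aa2 and Hist2h2be were still called lower. The part of acinar transcripts in these results was not tested. Fewer cells of a type and less RNA per cell cannot be told apart in such bulk samples.

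Among the 12 clustered H3 genes, only Hist1h3c was tested. It was at 2.60, 3.13, 1.57 and 1.01 FPKM in pMSCs, against 2.26, 0.410, 0.585 and 1.33 FPKM in iwatMSCs, so both groups spread widely and overlapped (adjusted p = 0.25). Below the test's expression limit were 41 clustered genes at 0.1 to 1 FPKM and 13 under 0.1 FPKM. Of these, 2 had all pMSC libraries above all iwatMSC libraries and 6 had them below. In all tested genes, which average at least 1 FPKM, these shares were 10.9% and 13.4%. Both counts were below these shares, which come from genes at another level. Hist1h2ai, an H2A gene, was at 0.895 to 1.15 FPKM in pMSCs, against 0.235 to 0.643 FPKM in iwatMSCs. Hist2h3c1, an H3 gene, was at 0.06 to 0.26 FPKM in pMSCs, against 0.48 to 1.51 FPKM in iwatMSCs. With no expression limit, limma called Hist1h2ai higher and Hist2h3b, Hist2h3c1 and Hist2h3c2 lower. The 3 H3 genes share 63.5% to 100% of their windows with other annotated genes, and Hist1h2ai shares 90.1%.

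Summed over all 67 clustered genes, the level was 98.9, 90.6, 85.5 and 76.8 FPKM in pMSCs, against 95.6, 99.8, 112 and 108 FPKM in iwatMSCs (means 88.0 ± 9.28 in pMSCs and 104 ± 7.35 in iwatMSCs). The groups overlapped through pMSC library 1. The variant sum was several times larger, at 606 ± 32.2 FPKM in pMSCs, against 611 ± 65.2 FPKM in iwatMSCs, and the means differed by less than the spread between libraries. Clustered genes thus made up 14.4, 12.6, 13.0 and 10.8% of summed histone FPKM in pMSCs, against 14.2, 13.7, 13.9 and 16.5% in iwatMSCs, again with overlap. H4 was at 7.97 ± 1.11 FPKM in pMSCs, against 11.4 ± 2.54 FPKM in iwatMSCs, and H3 at 5.68 ± 1.31 FPKM in pMSCs, against 6.26 ± 1.21 FPKM in iwatMSCs.

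**Figure D3:**
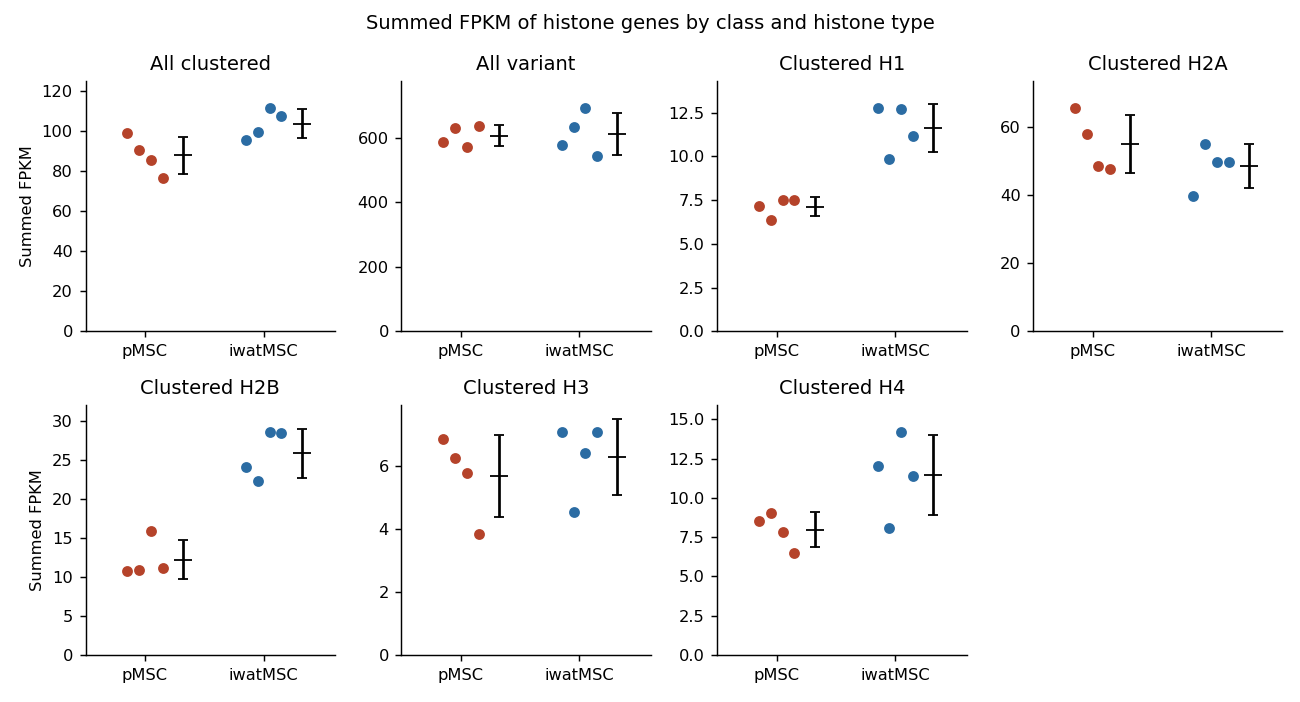
Summed FPKM by library for all 67 clustered genes, all 10 variant genes and the 5 clustered histone types, pMSCs left (red) and iwatMSCs right (blue), with mean and SD as bars. Each axis starts at 0. The groups do not overlap for clustered H1 and H2B and overlap for H2A, H3, H4 and both class sums.

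Where genes lay was compared with how they differed. The 54 Hist1 genes of chromosome 13 fall into 2 blocks separated by the widest gap between neighbours. In the first block (23 genes, chr13:21715763-22043676), the tested genes were Hist1h2ao, Hist1h2ap, Hist1h2ah, Hist1h4i and Hist1h2ag, with 1 called higher and 1 lower (median log2 fold change 0.31). In the second (31 genes, chr13:23531050-23934851), Hist1h2bg, Hist1h2bc, Hist1h1c and Hist1h3c were tested, with 0 called higher and 3 lower (median -0.71). Over all tested genes, 9.02% were called higher and 10.4% lower. Hist1h2bg passed the expression limit only through iwatMSCs. Apart from Hist1h4i, the tested genes of the first block were H2A copies that share windows. Position, histone type and shared reads therefore cannot be told apart here. The Hist2 genes of chromosome 3 summed to 4.75 ± 1.3 FPKM in pMSCs, against 12.5 ± 3.39 FPKM in iwatMSCs, with no overlap.

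Annotated transcript ends were set beside the levels. In 23 clustered genes the most abundant transcript ended within 100 bases after the stem-loop (median length 482 bases), and in 23 it ran on further (median 1249 bases). In 21 the letters were not found (median 393 bases, from 312 to 2620). Many of these 21 transcripts are short, so the letters may lie beyond their annotated end, which was not tested. This set also holds the long transcripts of Hist1h2bc and Hist2h2be. Genes ending near the stem-loop summed to 65.6, 57.7, 46.8 and 44.0 FPKM in pMSCs, against 40.3, 52.3, 47.4 and 46.4 FPKM in iwatMSCs, with overlap. Of the 6 of these that were tested, 1 was called higher and 1, Hist2h2aa2, lower. Genes running on past it summed to 18.9, 18.3, 21.6 and 18.3 FPKM in pMSCs, against 30.6, 24.4, 36.2 and 32.4 FPKM in iwatMSCs, with no overlap. Without Hist1h1c, its most abundant gene, this sum was 12.5 ± 1.45 FPKM in pMSCs, against 19.8 ± 3.99 FPKM in iwatMSCs, still with no overlap. Of the 4 tested, Hist1h1c and Hist1h4i were called lower, as was Hist1h2bg, which passed the limit only through iwatMSCs. Genes without the letters summed to 15.2 ± 1.32 FPKM in pMSCs, against 26.2 ± 2.74 FPKM in iwatMSCs, with no overlap, but this rested on Hist1h2bc. Without it the other 20 genes summed to 9.23, 9.10, 7.91 and 7.51 FPKM in pMSCs, against 9.27, 9.47, 9.76 and 8.46 FPKM in iwatMSCs, and the groups overlapped. Hist1h2bc and Hist2h2be were called lower of 3 tested. For comparison, 9.02% of all tested genes were called higher and 10.4% lower. Each end type held few tested genes, so these counts do not describe the end types. The end type comes from the annotation, and FPKM of a gene cannot tell which end its mRNAs had.

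**Figure D4:**
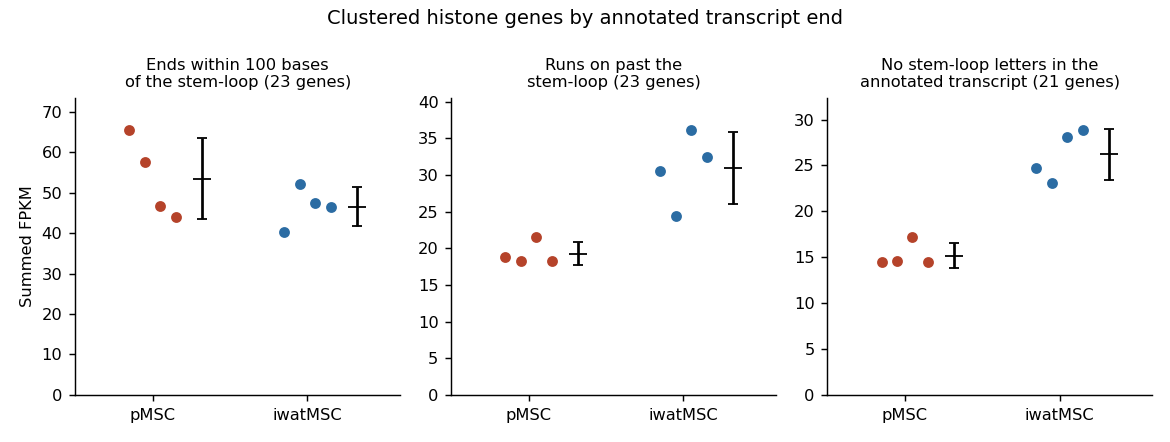
Summed FPKM by library of clustered histone genes grouped by the annotated end of their most abundant transcript, pMSCs left (red) and iwatMSCs right (blue), with mean and SD as bars. The groups overlap for the genes ending near the stem-loop, and every pMSC library is below every iwatMSC library for the other 2 sets, of which the set without the letters overlaps once Hist1h2bc is left out.

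In 12 places an H2A and an H2B gene start back to back, with 176 to 306 bases between their starts. Of the 11 pairs with both genes measured above 0, the means of both genes differed in the same direction in 4 and in opposite directions in 7. Most H2B means were under 1 FPKM with overlapping groups, so this split does not show that paired genes differ in opposite directions. Hist1h2bq and Hist1h2br, which face Hist1h2ao and Hist1h2ap, share 100% of their windows, so these 2 pairs are not independent. Only in 1 pair, Hist1h2ac and Hist1h2bc, 251 bases apart, were both genes without overlap, with all pMSC libraries below all iwatMSC libraries. In 5 pairs 1 gene was without overlap, the H2A gene above in 3 and the H2B gene below in 2. The 3 H2A genes are Hist1h2ad, Hist1h2ag and Hist1h2ai. They share 67.1%, 78.9% and 90.1% of their windows with other annotated genes, among them H2A copies, so they are not independent either. Over all tested genes, 24.4% had groups without overlap, but most genes of these pairs were below the limit of the test. Hist1h2ai, for example, was at 1.04 FPKM in pMSCs, against 0.394 FPKM in iwatMSCs, and its partner Hist1h2bl at 0.029 FPKM in pMSCs, against 0.087 FPKM in iwatMSCs, with overlap. Hist1h2ac was at 0.25 FPKM in pMSCs, against 0.45 FPKM in iwatMSCs on average, and Hist1h2bc at 6.75 FPKM in pMSCs, against 16.96 FPKM in iwatMSCs. Hist1h2ag, called higher, faces Hist1h2bj, which was at 0.71 FPKM in pMSCs, against 0.35 FPKM in iwatMSCs with overlapping groups. Hist1h2ae and Hist1h2bg, 176 bases apart, did not share a direction in their means, as Hist1h2ae was at 0.95 FPKM in pMSCs, against 0.62 FPKM in iwatMSCs with overlap. The RefSeq promoter windows of Hist1h2ac and Hist1h2ag (GRCm38.p6, from 250 bases before to 50 after the start) are shown because they hold most of the DNA between the starts of these pairs. Both lie on the - strand of chromosome 13, at chr13:23683910-23684209 and chr13:22042900-22043199, and capitals mark the motifs searched, on either strand.
Hist1h2ac: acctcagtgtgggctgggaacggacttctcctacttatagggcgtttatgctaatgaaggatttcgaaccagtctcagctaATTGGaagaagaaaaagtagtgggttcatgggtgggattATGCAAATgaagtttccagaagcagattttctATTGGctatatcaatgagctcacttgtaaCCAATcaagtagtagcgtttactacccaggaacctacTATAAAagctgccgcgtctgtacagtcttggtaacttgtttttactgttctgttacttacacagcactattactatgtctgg
Hist1h2ag: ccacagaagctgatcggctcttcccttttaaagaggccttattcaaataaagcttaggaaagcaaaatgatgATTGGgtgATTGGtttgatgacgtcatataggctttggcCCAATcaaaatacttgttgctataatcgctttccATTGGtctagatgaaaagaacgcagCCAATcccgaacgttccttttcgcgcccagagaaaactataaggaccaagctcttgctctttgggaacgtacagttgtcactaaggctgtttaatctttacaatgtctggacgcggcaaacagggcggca
The CCAAT box was searched by those letters. The TATA box was searched as TATAAA. The octamer known from H2B promoters was searched as ATTTGCAT, and an E2F form as TTTGGCGC. Each was searched on both strands, and none is contained in another. A match at any place in the window was counted, so it need not be a working site.

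Promoter windows were matched for 71 of the 77 members, by symbol or synonym. No entry was found for Hist1h2bc, Hist1h3a, Hist1h3f, Hist2h2be, Hist2h4 and H2afx. CCAAT was in 53 of 62 clustered promoters (85.5%), against 41.1% of the 27025 RefSeq genes with a window. It was in all H1, H2A, H2B and H3 windows and in 3 of 12 H4 windows. The letters TATAAA were in 56.5% of clustered windows, against 15.7% of all genes, and the octamer in 22.6%, against 1.97%, in 7 H2A and 7 H2B genes. Windows of H2A and H2B genes that start back to back can overlap, as for Hist1h2ah and Hist1h2bk. A match of any motif can then be counted for both genes, so these counts are not of separate sites. The E2F form was in 0 clustered windows and in 0.585% of all. Only those letters were searched. Other forms, such as TTTCGCGC in the Hist1h2ag window shown, were not counted, so E2F sites may still be present. Among the 11 tested clustered genes with a window, 10 held CCAAT, 4 TATAAA and 3 the octamer. Of these, Hist1h4i held TATAAA far from its start. Hist2h2aa1 held it near its start, whereas the window of its copy Hist2h2aa2 ends just before that place. Hist1h2bg, called lower, held all 3, and Hist1h2ag, called higher, held CCAAT alone of the motifs. CCAAT alone was also held by Hist1h1c and Hist2h2aa2, which were called lower, and all 3 by Hist1h2ah, which was not called. The motifs held thus did not follow the direction of the calls.

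Among the variant genes, H2afj, H2afx and H3f3c were called lower in pMSCs. H2afj encodes an H2A form that is known to accumulate in senescent human cells. H2afj (chr6:136808244-136810074, + strand) was at 17.4, 20.04, 19.7 and 19.5 FPKM in pMSCs, against 29.6, 30.0, 30.3 and 28.6 FPKM in iwatMSCs. The groups were tight and far apart, and H2afj had the lowest adjusted p of the members (log2 fold change -0.61 ± 0.07, adjusted p = 0.0002). The call held under each alternative run. It overlaps a short miRNA model on the opposite strand, Gm44364, which was at 54.1 to 58.4 FPKM in pMSCs, against 85.5 to 99.0 FPKM in iwatMSCs. Transcripts were quantified with default options, which set no library strand, so reads from both cannot be told apart, and such a model lies opposite 19 H2A-type members.

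H2afx encodes H2AX, which is phosphorylated around DNA double-strand breaks. H2afx (chr9:44334694-44336077, + strand) was at 38.7, 37.6, 32.6 and 35.8 FPKM in pMSCs, against 44.3, 43.4, 48.5 and 43.8 FPKM in iwatMSCs, with no overlap (log2 fold change -0.31 ± 0.07, adjusted p = 0.016). Without the third iwatMSC library, its highest, the adjusted p was 0.054. H3f3c (chr2:119665626-119666036, - strand) was at 33.9, 32.8, 32.7 and 35.2 FPKM in pMSCs, against 40.2, 39.1, 39.0 and 36.6 FPKM in iwatMSCs. The difference was small and just under the threshold (log2 fold change -0.20 ± 0.06, adjusted p = 0.045), and the call was lost without any one of the 8 libraries (adjusted p from 0.054 to 0.11) and with 3 other scalings. As H3f3c shares 67.7% of its windows with H3f3a, its reads may belong to either.

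H3f3a and H3f3b both encode H3.3, an H3 form placed into chromatin through the cell cycle and not only in S phase. H3f3a was at 78.1, 93.0, 92.1 and 131 FPKM in pMSCs, against 91.0, 74.2, 155 and 77.5 FPKM in iwatMSCs (adjusted p = 0.95). Each group had 1 high library, the fourth pMSC and the third iwatMSC. The transcript H3f3a-201 was at 96.7 FPKM in the fourth pMSC library, against 114 FPKM in the third iwatMSC library, and at 0 to 6.51 FPKM in the other 6. The remaining transcripts were lowest in the same libraries, at 34.6 FPKM in pMSC library 4, against 41.2 FPKM in iwatMSC library 3. H3f3b was at 137 ± 14.2 FPKM in pMSCs, against 128 ± 24.4 FPKM in iwatMSCs (adjusted p = 0.63). Whether the division of reads among transcripts accounts for the high libraries was not tested.

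**Figure D5:**
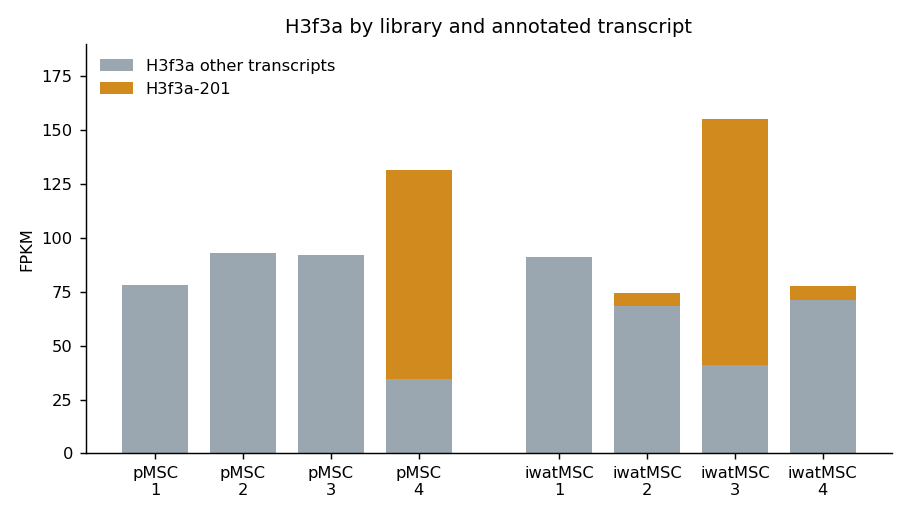
FPKM of H3f3a in each library, stacked by transcript, with H3f3a-201 in orange and all other annotated transcripts in grey, pMSC libraries left and iwatMSC libraries right. The orange part is 96.7 FPKM in pMSC library 4 and 114 FPKM in iwatMSC library 3 and at most 6.51 FPKM elsewhere.

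H2afz and H2afv encode the H2A.Z forms, which lie near transcription starts. H2afz was the most abundant member, at 157 ± 12.7 FPKM in pMSCs, against 153 ± 16.3 FPKM in iwatMSCs (adjusted p = 0.82). It shares 69.6% of its windows with other annotated genes, so some of its reads may belong to those. H2afv was at 16.8 ± 1.38 FPKM in pMSCs, against 15.8 ± 2.83 FPKM in iwatMSCs (adjusted p = 0.61). Neither was called, and the groups overlapped in both.

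H2afy encodes macroH2A1, an H2A with an added macro domain, and was at 51.3 ± 1.57 FPKM in pMSCs, against 47.4 ± 3.14 FPKM in iwatMSCs (adjusted p = 0.25). Its transcripts did not share a direction. H2afy-201 was at 24.7 to 27.3 FPKM in pMSCs, against 16.8 to 29.2 FPKM in iwatMSCs, and H2afy-202 at 11.1 to 13.8 FPKM in pMSCs, against 12.9 to 16.8 FPKM in iwatMSCs, both with overlap. H2afy-204 was at 8.04 to 9.34 FPKM in pMSCs, against 5.36 to 7.80 FPKM in iwatMSCs, with no overlap, and single transcripts were not tested. H1f0, a linker histone known to accumulate in cells that stop dividing, was at 48.9, 48.1, 43.9 and 41.1 FPKM in pMSCs, against 41.8, 40.2, 39.4 and 36.6 FPKM in iwatMSCs. The groups overlapped slightly, and it was not called (log2 fold change 0.20 ± 0.08, adjusted p = 0.10). H1fx, another linker histone, was listed at 0 FPKM in pMSC library 1 and at 13.9, 16.3 and 13.0 FPKM in the other pMSC libraries, against 14.2, 13.5, 15.9 and 12.3 FPKM in iwatMSCs. Its log2 fold change of -0.95 (adjusted p = 0.46) rested on that library and was 0.04 without it (adjusted p = 0.85). Its antisense neighbour Gm5577, which covers 755 of its bases, was at 30.7 FPKM in the same library, the lowest of the 8.

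Genes that make, carry or pace histones were compared from lists of genes known for these roles. For comparison, 19.4% of all 13345 tested genes were called in either direction. Of 16 tested genes of histone mRNA processing and decay, 0 were called in either direction by limma, with 1 at an unadjusted p under 0.05 and 0 called by the unequal-variance test. Srrt, which acts at capped RNA ends, was at 50.8 ± 3.63 FPKM in pMSCs, against 50.3 ± 2.77 FPKM in iwatMSCs, and Sympk, a scaffold of the 3' cleavage complex, at 38.1 ± 3.35 FPKM in pMSCs, against 40.8 ± 3.86 FPKM in iwatMSCs. Slbp, added for its role at the stem-loop after its values were seen, was at 18.3 ± 2.72 FPKM in pMSCs, against 20.6 ± 2.03 FPKM in iwatMSCs (adjusted p = 0.33). Among 22 chaperone and exchange genes, only Daxx, which deposits H3.3 with ATRX, was called, at 8.71 ± 0.26 FPKM in pMSCs, against 11.2 ± 0.39 FPKM in iwatMSCs (lower, adjusted p = 0.0058).

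Genes of DNA replication, which is coupled to clustered histone expression, were called in both directions, with 3 higher and 2 lower in pMSCs of 26 tested (median log2 fold change 0.06). This was near the 19.4% called over all tested genes, and the unequal-variance test called 3. Tyms, which makes thymidylate, was at 27.0 ± 7.57 FPKM in pMSCs, against 16.9 ± 1.08 FPKM in iwatMSCs, and Lig1, which joins Okazaki fragments, at 37.0 ± 0.76 FPKM in pMSCs, against 27.1 ± 2.29 FPKM in iwatMSCs. Rrm2, a ribonucleotide reductase subunit, was lower, at 138 ± 23.03 FPKM in pMSCs, against 208 ± 21.4 FPKM in iwatMSCs, as was the transcription factor gene E2f1, at 19.3 ± 1.47 FPKM in pMSCs, against 27.6 ± 1.11 FPKM in iwatMSCs. Of 20 mitosis genes, 3 were called higher and 0 lower, and the unequal-variance test called 1. Top2a was at 92.4 ± 3.72 FPKM in pMSCs, against 72.9 ± 1.57 FPKM in iwatMSCs, Mki67 at 39.6 ± 1.53 FPKM in pMSCs, against 31.8 ± 2.88 FPKM in iwatMSCs, and Aurkb at 33.8 ± 2.56 FPKM in pMSCs, against 26.9 ± 2.36 FPKM in iwatMSCs.

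Of 7 tested cell cycle inhibitor genes, 2 were called higher and 1 lower in pMSCs, and the unequal-variance test called 2. Cdkn2c was at 22.9 ± 1.76 FPKM in pMSCs, against 15.0 ± 1.22 FPKM in iwatMSCs and Cdkn1b at 10.5 ± 1.69 FPKM in pMSCs, against 7.25 ± 0.83 FPKM in iwatMSCs. Cdkn1a, which encodes the p53 target p21, was at 59.0 ± 10.1 FPKM in pMSCs, against 149 ± 40.8 FPKM in iwatMSCs, from part of its annotated transcripts (log2 fold change -1.29 ± 0.20, adjusted p = 0.0021). Of the 2 tested histone genes outside the member list, H2afy2, for macroH2A2, and Cenpa, the centromeric H3, neither was called (adjusted p = 0.079 and 0.64).

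The libraries held 437894 to 458616 FPKM in total, and the depth in reads is unknown. Stromal markers summed to 1280 to 1501 FPKM in pMSCs, against 1230 to 1906 FPKM in iwatMSCs. Mesothelial markers were at 15.6 to 30.3 FPKM in pMSCs and at 0 in every iwatMSC library. Ductal and epithelial markers summed to 8.42 to 17.9 FPKM in pMSCs, against 5.75 to 14.6 FPKM in iwatMSCs. Of the 2 of them that were tested, 1 was called higher and 1 lower in pMSCs. Endothelial markers summed to 2.34 to 3.65 FPKM in pMSCs, against 7.14 to 9.31 FPKM in iwatMSCs, with Tek called lower. Leukocyte markers summed to 1.55 to 4.08 FPKM in pMSCs, against 6.52 to 10.99 FPKM in iwatMSCs, with Cd68 called lower, while Ptprc, which encodes CD45, was at 0 to 0.03 FPKM in all 8 libraries. The part of these cells in the histone differences was not tested.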

How the data were processed

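RNA of 4 pMSC and 4 iwatMSC libraries was grouped by the labelled organ and numbered in order of deposit. The deposited values are FPKM of single Ensembl transcripts, made by the authors from mRNA-enriched RNA with STAR and StringTie on GRCm38.p6. Both were run with defaults for paired reads, which set no library strand. The depth in reads is unknown, which leaves counting error out. Of 136535 transcripts, 136372 (99.9%) matched GENCODE M21, and FPKM were summed per gene. Where a gene averaged at least 1 FPKM, log2(FPKM + 1) was tested with limma 3.58.1 under R 4.3.3 (lmFit, eBayes with trend, two-sided, no covariate, Benjamini-Hochberg adjustment, called under 0.05). This scale makes the fold changes of low genes too small. Whether each library had its own pool of mice is not stated, and p-values therefore cover only the spread seen among these samples, which may be technical. The fit was tested on simulated data. The members and lists were chosen with earlier results of these data known. Named were all variant genes, all called clustered genes, the 8 most abundant clustered genes, up to 4 called genes of each list with the largest change (otherwise the 2 most abundant) and exceptions. Other members were chosen after their values were seen. Transcript sequences came from GENCODE M21 and promoters from RefSeq. Alternatives were other pseudocounts, filters, scalings, weights and tests, protein-coding transcripts only, left-out libraries and, chosen after seeing the data, summed near-identical pairs and both pMSC libraries 1 and 2 left out.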

Additional observations from a re-analysis of the deposited data

Results flagged for a closer look

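The summed clustered H2B level of pMSC library 3, 15.9 FPKM, stood apart from the other 3 pMSC libraries, which were at 10.7 to 11.2 FPKM. The gap was 0.91 of the range of the group, above Dixon's 95% critical value of 0.829 for 4 samples. Chance sets off this test in about 1 group in 20, and 58 groups of values were examined. The sum was nevertheless lower than in any iwatMSC library, and Hist1h2bc was still called lower without this library.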

How the results depend on the processing

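Hist1h1c, Hist1h2bc, Hist1h2bg, Hist2h2be and H2afj kept their direction and call under each alternative in which they were tested, and Hist1h2bg and Hist2h2be fell below a mean of 5 FPKM. The 2589 called genes became 1428 with the unequal-variance test and 1468 without both pMSC libraries 1 and 2. Clustered genes called higher numbered 0 with a mean of 5 FPKM or more, with the unequal-variance test and without both pMSC libraries, 2 after rescaling to TPM, and 0 to 2 when 1 library was left out. Clustered genes called lower numbered 3 with a mean of 5 FPKM or more, where only 15 members could be tested, and 5 to 6 when 1 library was left out. Variant genes called higher numbered 1 (H1f0) after rescaling to TPM and with array weights. Variant genes called lower numbered 1 to 2 when 1 library was left out. TPM values are larger than FPKM, so 36 members then passed the limit of 1. No named gene that was called changed sign. The cause of the other changes was not tested. No paired analysis was possible because the labels give the groups no shared replicate number and pancreas and inguinal libraries of the same mice are not matched in any source.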
